A study of Homo sapiens with 6 samples.

Results

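The 5 genes described are the TAM receptors AXL, TYRO3 and MERTK and the ligands GAS6 and PROS1, and they were followed through every array probe set annotated to one of these symbols alone. That gave 10 of the 54613 probe sets tested, 2 each for AXL, TYRO3 and GAS6, 3 for MERTK and 1 for PROS1. Signal was measured in SUM149 cells, a human inflammatory breast cancer line, after transient transfection with siRNA pools at 200 nmol/L, on 6 Affymetrix HG-U133 Plus arrays. In the siTIG1 group, 3 arrays came from cells given an ON-TARGET Plus pool against TIG1 (RARRES1), and in the siControl group 3 arrays came from cells given a siGENOME non-targeting pool, so target and siRNA chemistry differed together. All cells grew in medium with serum, insulin and hydrocortisone, and one line was used throughout. Nothing in the labels says whether replicates were separate cultures, so p-values measure the spread between these arrays only.

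TAM receptors are receptor tyrosine kinases that recognise phosphatidylserine on membranes through bridging ligands. GAS6 binds AXL, TYRO3 and MERTK, whereas protein S, the product of PROS1, acts mainly through TYRO3 and MERTK and is best known as a plasma anticoagulant cofactor. Both ligands need vitamin K-dependent carboxylation to bind lipid. In carcinoma cells AXL is known for its links to migration, survival and drug resistance, and MERTK and AXL in macrophages for the uptake of dying cells.

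The windows around the RefSeq start sites of the genes whose probe sets changed are shown because 2 of them fell while the third rose. Each runs from 250 bases before to 50 after the start site, 5′ to 3′ on the gene's strand (RefSeq, build GRCh38.p14), and capitals mark the GC box GGGCGG on either strand. The AXL window lies at chr19:41218973-41219272 on the plus strand, that of GAS6 at chr13:113864027-113864326 on the minus strand and that of PROS1 at chr3:93973847-93974146 on the minus strand.
AXL: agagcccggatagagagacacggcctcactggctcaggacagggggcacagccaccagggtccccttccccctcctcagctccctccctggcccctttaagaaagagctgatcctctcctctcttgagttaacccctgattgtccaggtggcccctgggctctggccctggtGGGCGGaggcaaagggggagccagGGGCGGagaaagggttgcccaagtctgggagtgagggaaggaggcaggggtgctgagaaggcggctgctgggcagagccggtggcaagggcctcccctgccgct
GAS6: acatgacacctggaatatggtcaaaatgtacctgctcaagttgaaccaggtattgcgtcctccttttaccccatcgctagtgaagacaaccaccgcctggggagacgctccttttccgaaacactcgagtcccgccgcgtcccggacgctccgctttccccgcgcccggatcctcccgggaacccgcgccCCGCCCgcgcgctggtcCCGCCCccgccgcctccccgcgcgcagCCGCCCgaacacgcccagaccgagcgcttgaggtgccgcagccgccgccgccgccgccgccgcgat
PROS1: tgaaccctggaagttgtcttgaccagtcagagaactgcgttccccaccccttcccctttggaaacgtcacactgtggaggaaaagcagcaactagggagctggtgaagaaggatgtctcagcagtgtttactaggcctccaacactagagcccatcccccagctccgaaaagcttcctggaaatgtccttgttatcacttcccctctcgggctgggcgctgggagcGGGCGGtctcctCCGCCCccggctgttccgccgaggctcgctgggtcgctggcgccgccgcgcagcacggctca
The AXL window has GC boxes starting 78 and 54 bases before the start site, GAS6 has 3, starting 60, 43 and 16 bases before it, and PROS1 has 2, at 24 and 12 bases. A GC box stands in 45% of all 35116 RefSeq windows of this length, so these matches are common. The AP-1 motif TGANTCA, present in 7.71% of windows, was in none of the 3, and neither was the TEAD motif GGAATG (14% of windows). AXL has a second listed start site 7532 bases downstream, whose window holds 1 TEAD motif and no GC box. Among the other receptors, the first TYRO3 window has 3 GC boxes and 1 AP-1 motif, and that of MERTK has 5 GC boxes. Both strands were searched for each motif, and a match describes letters and not a bound site.

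Each array gave 1 log2 signal per probe set, with array medians of 7.87 to 7.90. Arrays correlated at 0.998 to 0.999 within the siTIG1 group and at 0.998 between siControl replicates 1 and 2, but siControl replicate 3 correlated with the other controls at 0.985. TIG1 was lower in siTIG1 cells on each of its 3 probe sets without passing the test (adjusted p of 0.20, 0.23 and 0.27). On probe set 206391_at it read 10.72, 10.03 and 9.96 on the siTIG1 arrays and 11.04, 10.92 and 12.58 on the siControl arrays. On 221872_at, the brightest of the 3, it read 12.69, 11.95 and 11.87 on the siTIG1 arrays and 12.65, 12.61 and 13.74 on the siControl arrays, so the groups overlapped (exact permutation p = 0.3, n = 3 each). There the array labelled siTIG1 replicate 1 lay above siControl replicates 1 and 2, and directions given for the siTIG1 group include that array. Epithelial markers were bright, EPCAM averaging 14.34 ± 0.04 in siTIG1 cells and 14.39 ± 0.12 in siControl cells (SD, n = 3 each). The 8 measured leukocyte and macrophage markers averaged 7.19 to 7.23 on siTIG1 arrays and 7.03 to 7.30 on siControl arrays, and none passed limma's test (2 had an unadjusted p under 0.05). Of the other marker lists, KRT19 rose among 7 epithelial genes (1.00 ± 0.15 SE) and decorin (DCN) among 8 of fibroblasts (2.17 ± 0.19 SE), 4 epithelial genes had an unadjusted p under 0.05, and none of 6 endothelial genes passed (0 at an unadjusted p under 0.05). EGFR, also on the epithelial list, did not pass at -1.43 ± 0.46 (SE, limma adjusted p = 0.14), and read 14.22 on siControl replicate 3 against 12.47 and 12.49 on its other controls. The part of these genes in the values below was not tested.

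AXL and GAS6 were lower and PROS1 was higher after TIG1 siRNA, while TYRO3 and MERTK did not pass the test. Of the 10 probe sets, 3 fell, 1 rose and 6 did not pass at an adjusted p of 0.05 (limma, Benjamini-Hochberg over all 54613 probe sets). Over the whole array 5.01% of probe sets were called, 2.87% as lower and 2.14% as higher. The 5 genes were chosen with earlier results of these data known, so their count cannot be read as an excess over this share. Without siControl replicate 3 again 3 were lower and 1 higher, when 18.9% of all probe sets were called. The median difference was -0.09 on the log2 scale over the 10 and 0.01 over all probe sets. For 4 of the 10 every siTIG1 array lay below every siControl array, and for 1 above, against 13.0% and 14.8% of all probe sets.

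**Figure D1:**
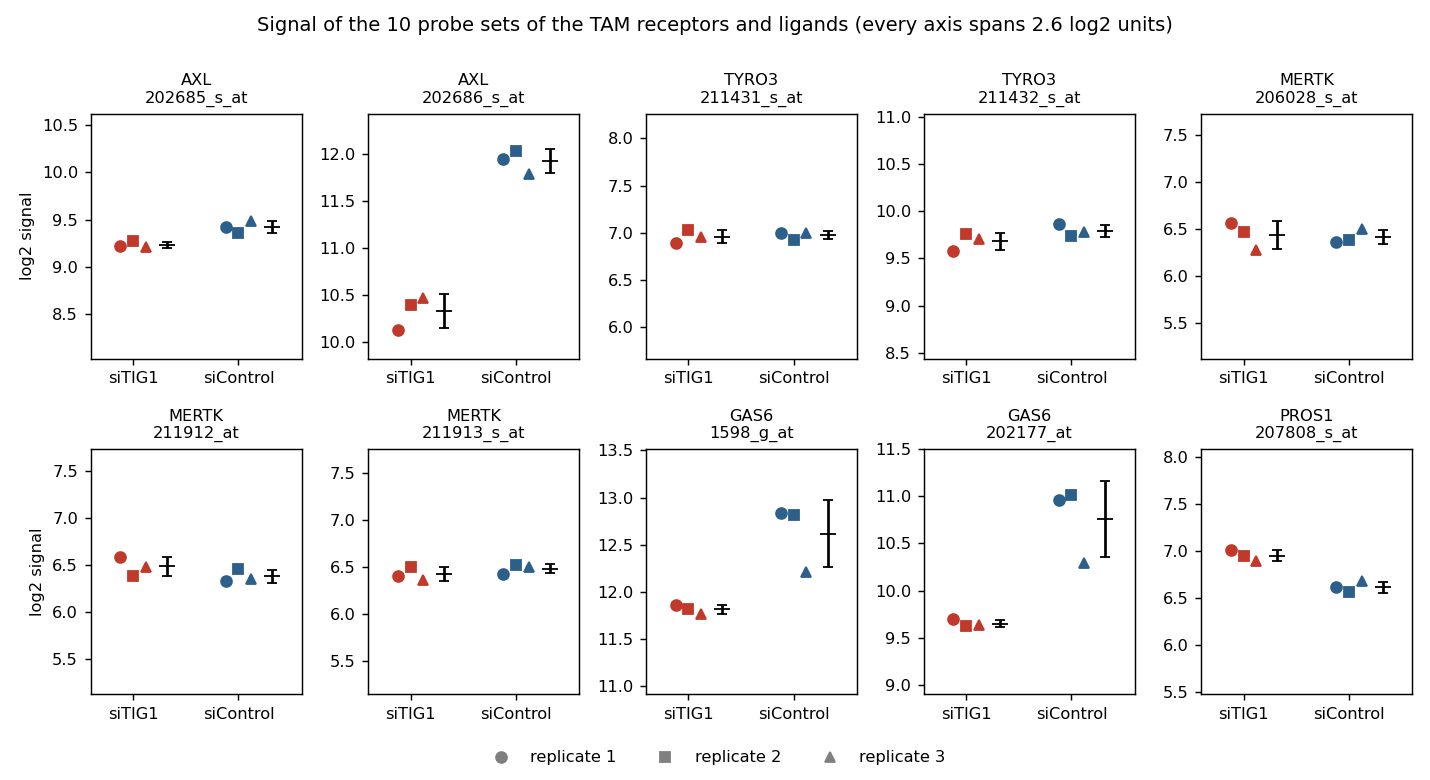
Log2 signal (vertical axes) of each probe set on the 3 siTIG1 arrays (red, left) and 3 siControl arrays (blue, right), with marker shapes for replicate number and black bars for mean ± SD. AXL probe set 202686_s_at and both GAS6 probe sets separate widely, and siControl replicate 3 is the lowest control on these 3.

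AXL probe set 202686_s_at read 10.13, 10.40 and 10.47 in siTIG1 cells, against 11.95, 12.03 and 11.79 in siControl cells. The groups lie far apart, and the spread within each is small beside the gap. Mean signals were 10.33 ± 0.18 and 11.92 ± 0.13 (SD, n = 3 each), a log2 difference of -1.59 ± 0.11 (SE, 95% interval -1.85 to -1.33, limma adjusted p = 0.0024), or 3.01-fold lower in siTIG1 cells. Only 0.161% of all probe sets differed by more in size. An exact two-sided permutation test gave p = 0.1, the smallest that 3 against 3 arrays allow. The call was kept with each array left out in turn (limma adjusted p of at most 0.031), with differences of -1.66 to -1.49.

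The other AXL probe set, 202685_s_at, showed a far smaller gap. It read 9.22, 9.27 and 9.21 in siTIG1 cells, against 9.42, 9.35 and 9.48 in siControl cells. All siTIG1 arrays were again the lower ones, but the log2 difference was -0.19 ± 0.06 (SE), with a 95% interval of -0.32 to -0.05, and did not pass (limma adjusted p = 0.13). Array by array, the gap between the AXL probe sets differed between groups by 1.40 ± 0.15 (SE, n = 3 each, exact permutation p = 0.1), with no overlap. The size of the AXL fall thus depends on the probe set in these arrays, and averaging them gave -0.89 (limma adjusted p = 0.0023 over genes). Both are named as measuring AXL, and the annotation lists a transcript accession for 202686_s_at only. RNA integrity, read as the 3′ minus the 5′ signal of the ACTB controls, gave 2.25 ± 0.10 in siTIG1 cells and 2.85 ± 0.31 in siControl cells (SD, n = 3 each, exact permutation p = 0.1). Among controls, siControl replicate 3 was highest at 3.21, against 2.73 and 2.62. The GAPDH controls gave 0.463 ± 0.007 in siTIG1 cells and 0.504 ± 0.060 in siControl cells (SD, exact permutation p = 0.2). The part of RNA integrity in the AXL values was not tested.

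Within each group the array with the highest TIG1 signal had the lowest AXL signal on 202686_s_at. In siTIG1 cells this was replicate 1, with TIG1 at 10.72 on 206391_at and AXL at 10.13. Among controls it was replicate 3, at 12.58 and 11.79, the array that differed most from the other controls over all probe sets (correlation of 0.985). With 3 arrays per group this order was not tested, and the other AXL probe set, 202685_s_at, did not follow it: siControl replicate 3 was its highest control, and siTIG1 replicate 3 its lowest siTIG1 array. GAS6 did not follow it in siTIG1 cells either, where replicate 1 had the highest GAS6 signal.

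TYRO3, a receptor for both ligands, did not pass on either probe set. Probe set 211432_s_at read 9.58, 9.76 and 9.71 in siTIG1 cells, against 9.86, 9.74 and 9.78 in siControl cells, so the groups overlapped. Its log2 difference was -0.11 ± 0.07 (SE, limma adjusted p = 0.44), and the 95% interval of -0.27 to 0.05 does not reach the size of the fall on AXL probe set 202686_s_at. It does include the difference of -0.19 on the other AXL probe set, 202685_s_at. On probe set 211431_s_at signals were low, from 6.89 to 7.03 in siTIG1 cells and from 6.92 to 7.002 in siControl cells. That difference was -0.01 ± 0.06 (SE, limma adjusted p = 0.92). TYRO3 and PROS1 have pseudogene copies, whose RNA these probe sets could share.

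MERTK, the receptor most tied to macrophages, gave low signals on all 3 of its probe sets; between 21.4% and 21.9% of all probe sets had a lower mean. Across them readings ran from 6.28 to 6.59 in siTIG1 cells and from 6.33 to 6.52 in siControl cells, and the groups overlapped on each. Differences were 0.02 ± 0.09, 0.11 ± 0.07 and -0.06 ± 0.06 (SE) for 206028_s_at, 211912_at and 211913_s_at (limma adjusted p of 0.93, 0.50 and 0.67). Their 95% intervals all lie between -0.20 and 0.28. The deposited values carry no detection call, so whether MERTK rose above background cannot be read here, and a change in it could be understated.

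GAS6, the ligand of all 3 receptors, fell on both probe sets. On 202177_at it read 9.70, 9.62 and 9.63 in siTIG1 cells, against 10.96, 11.01 and 10.29 in siControl cells. The siTIG1 arrays were nearly equal, and siControl replicate 3 lay between them and the other controls. The log2 difference was -1.11 ± 0.19 (SE, 95% interval -1.56 to -0.66, limma adjusted p = 0.026), or 2.15-fold lower. Probe set 1598_g_at read 11.86, 11.81 and 11.77 in siTIG1 cells, against 12.83, 12.82 and 12.21 in siControl cells. Here the difference was -0.80 ± 0.17 (SE, 95% interval -1.21 to -0.40), just inside the threshold (limma adjusted p = 0.049), and siControl replicate 3 was again the control nearest to the siTIG1 arrays.

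The gap between the GAS6 probe sets, array by array, differed between groups by 0.30 ± 0.04 (SE, n = 3 each, exact permutation p = 0.1). siControl replicate 3 lay 0.69 below the other controls on 202177_at and 0.62 below on 1598_g_at. Without that array the differences were -1.34 (limma adjusted p = 3.2e-06) and -1.01 (limma adjusted p = 1.3e-05). Leaving out any other single array ended both calls, with adjusted p of 0.083 to 0.13 on 202177_at and 0.13 to 0.20 on 1598_g_at. The sign was negative in each of these fits.

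PROS1, the gene of protein S, rose slightly from a low signal on its only probe set, 207808_s_at. It read 7.01, 6.95 and 6.89 in siTIG1 cells, against 6.61, 6.56 and 6.68 in siControl cells. Each siTIG1 array was above each control. The log2 difference was 0.33 ± 0.06 (SE, 95% interval 0.19 to 0.47, limma adjusted p = 0.030), or 1.26-fold higher, and 10.8% of probe sets differed by more in size. The call was lost when any single array other than siControl replicate 3 was left out (limma adjusted p of 0.094 to 0.14). Without that control the difference was 0.36 (limma adjusted p = 0.0028). As for MERTK, no background estimate stands beside this low signal.

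**Figure D2:**
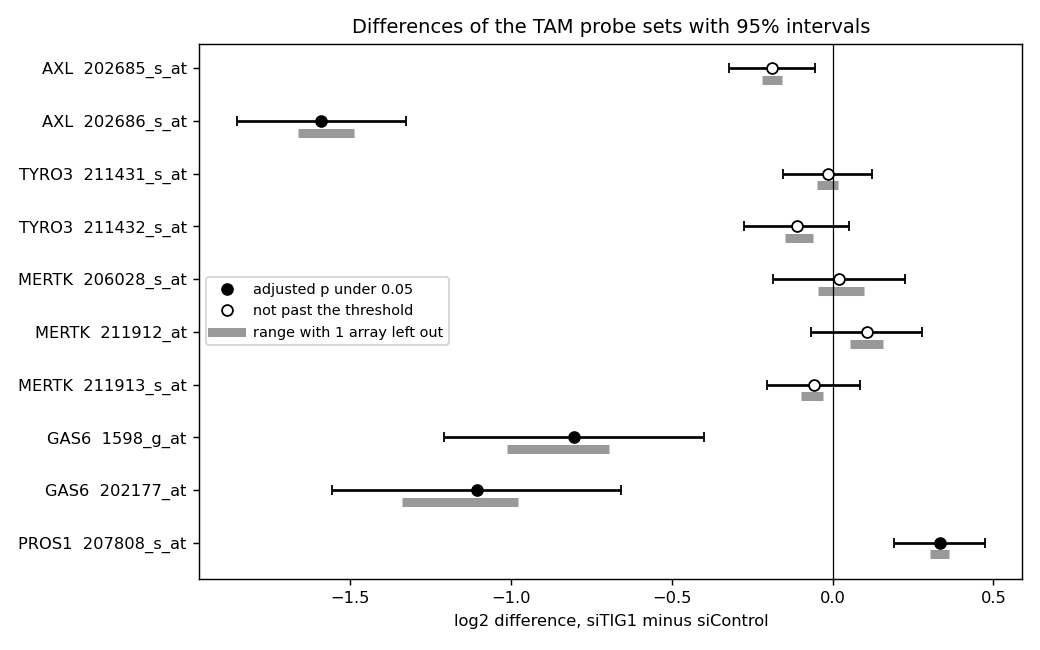
Log2 difference, siTIG1 minus siControl (horizontal axis), of the 10 probe sets with 95% limma intervals, filled where the adjusted p is under 0.05, and grey bars for the range with 1 array left out. AXL 202686_s_at stands at -1.59, both GAS6 probe sets at -1.11 and -0.80, and PROS1 at 0.33, while TYRO3 and MERTK lie near 0.

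Genes tied to these receptors were read from 8 lists with 98 measured genes, each gene by 1 probe set. Of these, 10 rose, 7 fell and 81 did not pass (limma, adjusted over 19775 genes), or 17.3%. Of all genes 7.29% were called, 3.16% as higher and 4.14% as lower. Their median difference was -0.02 on the log2 scale, and that of all genes was 0.02. All 17 passed without siControl replicate 3, when 20 rose and 19 fell, or 39.8%, against 27.1% of all genes. Of the 17, 4 passed with any 1 array left out: VAV3, FOS, ITGB5 and PIK3R3. The lists were chosen with earlier results of these data known, so these shares cannot be read as an excess over all genes. Among the 17 are AP-1 subunits from 1 list, of which FOS, FOSB, FOSL2 and JUN rose and FOSL1 fell. On the same list JUNB (0.62 ± 0.17 SE, limma adjusted p = 0.094) and JUND (-0.24 ± 0.17 SE, limma adjusted p = 0.47) did not pass.

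None of 3 other proposed TAM ligands passed limma's test, and 0 had an unadjusted p under 0.05. TUB differed by 0.09 ± 0.07, TULP1 by -0.04 ± 0.08 and the lectin LGALS3 by -0.05 ± 0.05 (SE). In the vitamin K cycle, which carboxylates GAS6 and protein S, 1 of 6 genes fell and none rose. That was VKORC1L1, a vitamin K epoxide reductase, at -0.64 ± 0.09 (SE, limma adjusted p = 0.015). The carboxylase GGCX itself differed by 0.53 ± 0.16 (SE, limma adjusted p = 0.13), with siTIG1 readings of 10.73, 10.79 and 10.79 against siControl readings of 10.47, 10.41 and 9.85.

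Of 9 genes of receptor shedding and intramembrane cleavage, PSEN2, a presenilin, fell by 0.47 on the log2 scale (limma adjusted p = 0.034), none rose and 8 did not pass. Of the 9 genes, 5 had an unadjusted limma p under 0.05. Among 3 PSEN2 probe sets 1 pointed the other way. The sheddases ADAM10 and ADAM17 differed by 0.09 ± 0.08 and 0.18 ± 0.16 (SE).

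Among 20 signalling partners of AXL, 3 rose, 2 fell and 15 did not pass, while 7 of the 20 had an unadjusted limma p under 0.05. VAV3, a guanine nucleotide exchange factor, rose most. It read 11.52, 11.73 and 11.77 in siTIG1 cells, against 10.25, 10.17 and 9.70 in siControl cells, a difference of 1.63 ± 0.16 (SE, limma adjusted p = 0.0047), or 3.11-fold. The transcription factor STAT3 (0.57 ± 0.08 SE) and the adaptor SHC1 (0.45 ± 0.09 SE) also rose. PIK3R3, a regulatory subunit of PI3-kinase, fell (-0.62 ± 0.05 SE, limma adjusted p = 0.0039), as did RANBP9 (-0.35 ± 0.07 SE). GRB2, the adaptor, differed by -0.13 ± 0.09, and PIK3R1 by 0.22 ± 0.15 (SE). Probe sets of VAV3 ranged from 0.06 to 1.63, the other PIK3R3 probe set stood at -0.09, and 1 of 4 STAT3 probe sets had the opposite sign. Across its 4 probe sets RANBP9 ranged from -0.44 to -0.0001.

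Of 8 genes of phosphatidylserine exposure PLSCR1, named phospholipid scramblase and also interferon-inducible, rose (0.56 ± 0.10 SE, limma adjusted p = 0.028), with 1 of its 3 probe sets of opposite sign. In that list 4 of the 8 had an unadjusted limma p under 0.05. Of 20 genes of other receptors and engulfment, the integrin chain ITGAV rose (0.59 ± 0.08 SE, limma adjusted p = 0.012) and its partner ITGB5 fell (-0.97 ± 0.07 SE, limma adjusted p = 0.0023), while 18 did not pass. ITGB5 read 11.90, 11.88 and 11.76 in siTIG1 cells, against 12.78, 12.75 and 12.90 in siControl cells, and all 4 of its probe sets were lower. MFGE8, the bridging protein bound by that integrin pair, differed by 0.07 ± 0.08 (SE). None of 11 anticoagulant partners of protein S passed (limma), although TFPI and F8 had an unadjusted p under 0.05, and the largest differences were 0.19 ± 0.08 for SERPINA5 and -0.19 ± 0.07 for F8 (SE).

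Of 21 factors reported at the AXL promoter, 5 rose, 2 fell and 14 did not pass, while 12 of the 21 had an unadjusted limma p under 0.05. FOSL1, the AP-1 subunit FRA-1, read 10.06, 9.77 and 9.77 in siTIG1 cells, against 11.55, 11.46 and 12.56 in siControl cells. Its difference was -1.99 ± 0.29 (SE, limma adjusted p = 0.015) and -1.64 without siControl replicate 3. The zinc finger factor MZF1 fell (-0.48 ± 0.07 SE), with 1 of 4 probe sets of opposite sign. The rises were those of the AP-1 subunits FOS (1.76 ± 0.12 SE), FOSL2 (1.16 ± 0.17 SE), JUN (0.85 ± 0.17 SE) and FOSB (0.75 ± 0.12 SE), and of TEAD2 (0.42 ± 0.06 SE), for which 2 of 4 probe sets were of opposite sign. Across its 5 probe sets FOSL2 ranged from 0.10 to 1.16, and JUN across its 4 from 0.19 to 0.85. The GC box factors SP1 and SP3 differed by -0.20 ± 0.05 and -0.23 ± 0.06 (SE). They did not pass (limma adjusted p of 0.066 and 0.071), though for both every siTIG1 array lay below every siControl array.

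**Figure D3:**
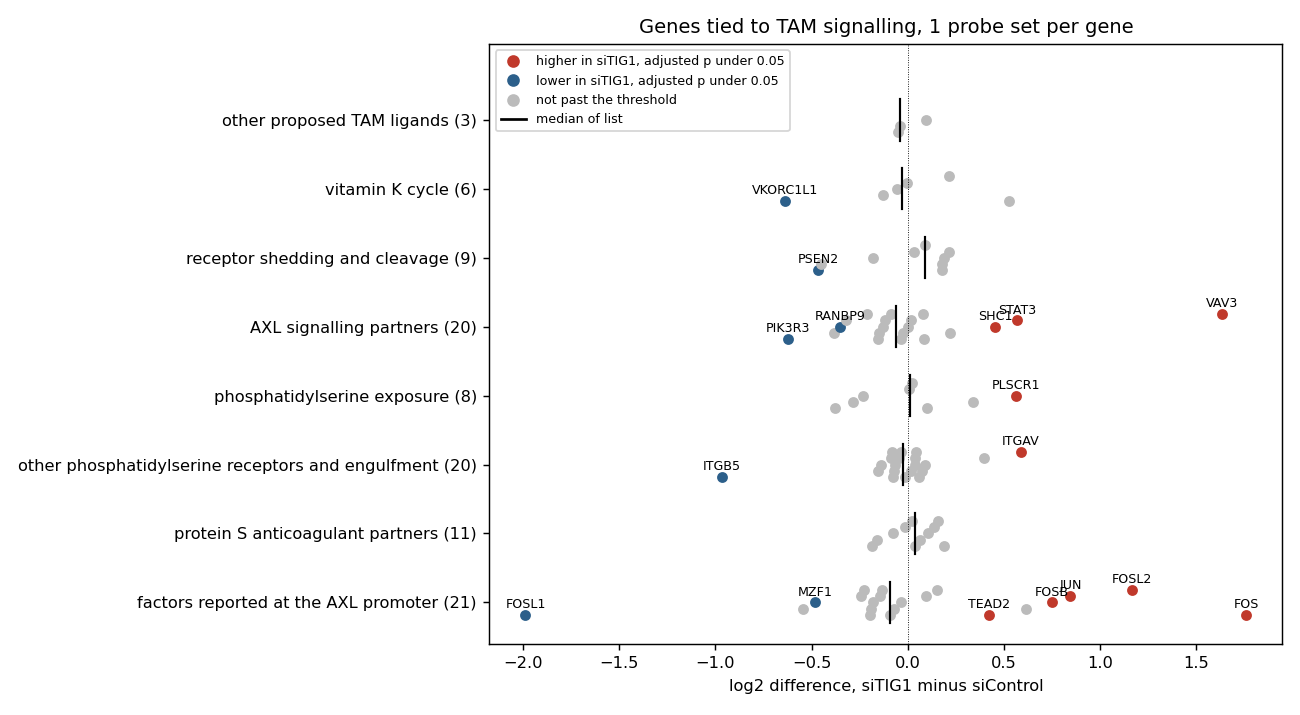
Log2 difference, siTIG1 minus siControl (horizontal axis), of each measured gene in 8 lists (rows, number of genes in brackets), red for higher and blue for lower at an adjusted p under 0.05, grey for the rest, with black ticks at list medians. FOSL1 and ITGB5 lie farthest to the left and FOS and VAV3 farthest to the right.

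The genes whose centred signal over 6 arrays lay nearest to that of AXL, by root mean square distance, were GDA at 0.12, TMEM158 at 0.20, LAMB3 at 0.22, SLCO4A1 at 0.23, DMBT1 at 0.24 and SLIT2 at 0.24 log2 units, where the median gene was at 0.82. GDA encodes guanine deaminase, and LAMB3 a chain of laminin-332. By this choice their differences had to lie near that of AXL, and they ran from -1.53 ± 0.14 (SE) for LAMB3 to -1.12 ± 0.10 (SE) for SLIT2. Nearest to GAS6 on probe set 1598_g_at were GPR3 at 0.08, LOXL1 at 0.09, FJX1 at 0.09 and CSNK1E at 0.10, where the median gene was at 0.47. Likewise fixed by the choice, the differences were -0.95 ± 0.16 for LOXL1, a lysyl oxidase, -0.89 ± 0.14 for the casein kinase CSNK1E, -0.70 ± 0.18 for GPR3 and -0.89 ± 0.23 for FJX1 (SE). These 4 genes share with GAS6 a low reading on siControl replicate 3 beside the other controls, as nearness over the same arrays implies.

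**Figure D4:**
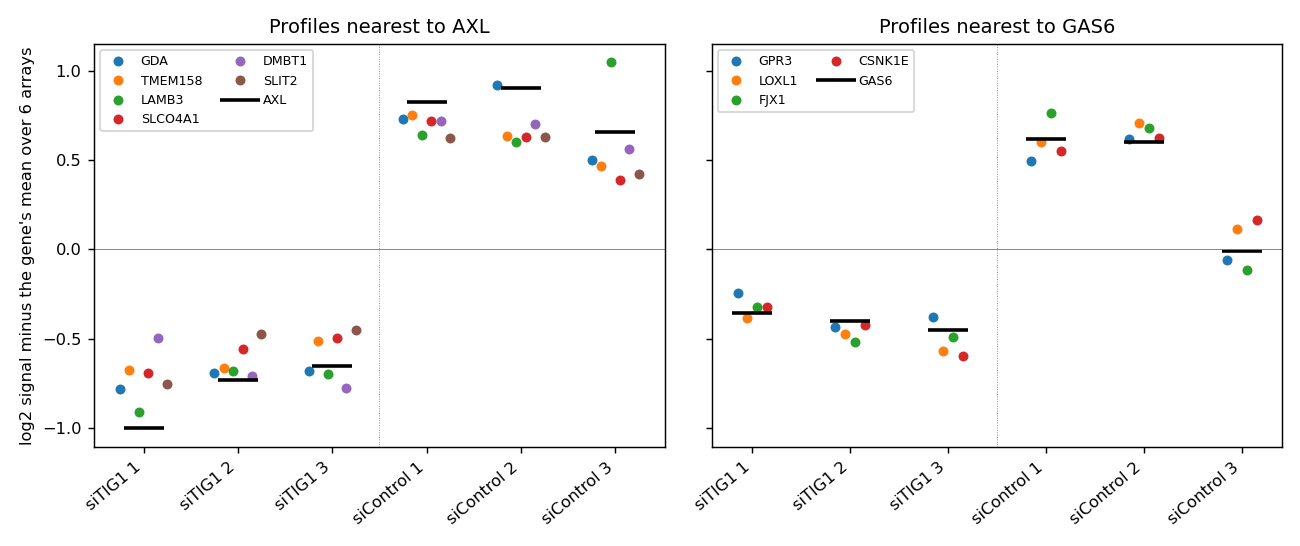
Log2 signal minus each gene's mean over 6 arrays (vertical axis) by array (horizontal axis, siTIG1 left and siControl right), with AXL and GAS6 as black bars and the nearest genes as coloured points. GAS6 and its neighbours drop on siControl replicate 3, whereas AXL stays high on all 3 controls.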

How the data were processed

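The authors' deposited log2 signals, 1 per probe set and array, were used as deposited. The log base is not stated and was taken as 2 from the range of 4.28 to 15.59. The submitters' processing notes name MAS5 and RMA without saying which made these values. Ranked signals matched between arrays to within 0.093, so they were already normalized between arrays, which hides any shift of most genes one way.

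The 62 Affymetrix control probe sets were left out. Of the other 54613, 41091 had 1 symbol in the platform annotation, 1801 several and 11721 none listed. Symbols were updated by gene number against RefSeq (GRCh38.p14), which held 19735 of 19775 genes. Groups came from sample titles and went into limma 3.58.1 (R 4.3.3, 2-sided, no block), tested on simulated data, with Benjamini-Hochberg adjustment and a threshold of 0.05. Probe sets of the 5 genes were tested among all probe sets. The related lists were tested with 1 probe set per gene, the brightest, with x_at sets only where no other existed. The labels state no pairing, and deviations of same-numbered arrays correlated at -0.04, -0.01 and -0.01. With so few arrays, such values cannot exclude a pairing by replicate number.

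Named list genes were those past the threshold, at most 4 per list by p, or else the 1 or 2 largest differences. RANBP9, TEAD2, FOSB, JUN, GGCX, TULP1, ADAM10, ADAM17, GRB2, PIK3R1, MFGE8, SP1, SP3, TFPI and the markers EPCAM, KRT19, DCN and EGFR were added after their values were seen, to complete counts or roles. JUNB and JUND were added likewise. Members and lists were chosen with earlier results of these data known. The number of arrays limits the precision.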

Additional observations from a re-analysis of the deposited data

How the results depend on the processing

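The fall of AXL on probe set 202686_s_at kept its sign and its call under median centring, quantile normalization, a filter on dim features, array weights, trended and robust moderation, a replicate block and with any 1 array left out (-1.66 to -1.49). GAS6 on 1598_g_at lost its call under quantile normalization (-0.77, limma adjusted p = 0.063), trended and robust moderation (-0.80, adjusted p = 0.053) and the replicate block (-0.80, adjusted p = 0.079), and ranged from -1.01 to -0.70 with 1 array left out, always negative. Under all alternatives the limma adjusted p of GAS6 ran from 1.3e-05 to 0.20 on 1598_g_at and from 3.2e-06 to 0.13 on 202177_at. With the replicate block GAS6 202177_at (limma adjusted p = 0.066) and PROS1 (limma adjusted p = 0.12) also lost their calls. The number of TAM probe sets called, 4 of 10, was 1 with the replicate block and 1 to 4 with 1 array left out. No siTIG1 array correlated best with the control of its own number (0 of 3), but so few arrays cannot exclude a pairing. Over all probe sets the 2737 calls became 8925 with array weights, 478 with the replicate block and 327 to 10324 with 1 array left out. The 17 related genes called became 41, 4 and 4 to 39. Signs near 0 turned for TYRO3 211431_s_at (-0.049 to 0.017 with 1 array left out) and MERTK 206028_s_at (-0.045 to 0.098 likewise). MERTK 211913_s_at stayed negative (-0.099 to -0.030 likewise), whereas the mean of the MERTK probe sets differed by 0.022. The cause of these changes was not tested. Low signals of MERTK, PROS1 and TYRO3 211431_s_at were left out by the filter on dim features, and with no background estimate a change there can be understated.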
